A study of Mus musculus with 12 samples.

Results

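The members were large clones of CD8 T cells in the mouse brain, meaning clones of 10 or more cells, set against small clones of 2 to 4 cells of the same pools of mice. A cell was counted as CD8 when it had at least 500 genes, at most 10% of its UMIs (unique molecular identifiers, each an original RNA molecule) from mitochondrial genes, at least 1 UMI of Cd8a or Cd8b1, and no UMI of Cd4 or Trdc. A clone was all such cells of a pool with the same clonotype in the authors' receptor calls. Of 18374 cell barcodes, 17962 passed the cell filter, 11647 were CD8 cells and 10577 of these carried a receptor, in 7122 clones. There were 76 large clones with 2225 cells and 540 small clones with 1312 cells. A further 105 clones had 5 to 9 cells and 6401 were seen in a single cell. Clone size, a readout of the receptor libraries, chose the members, so it is given here only as a description. Beyond the number of genes and the mitochondrial share, the rule used the expression of only Cd8a, Cd8b1, Cd4 and Trdc. These genes were left out of every test together with the receptor genes. Mitochondrial genes, the mitochondrial share and the number of genes per cell were still tested, within the cells that passed these limits.

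A clone is the set of descendants of 1 T cell, recognised by the shared rearranged DNA that codes for the CDR3 loops of its receptor's alpha and beta chains. A CD8 T cell that keeps meeting its antigen divides and can come to express inhibitory receptors such as PD-1 (Pdcd1) and LAG-3 (Lag3) and the transcription factor Tox, which maintains that state. Naive and central memory cells instead carry Ccr7, which brings them into lymph nodes, Il7r, which receives the survival signal of interleukin-7, and the transcription factors Tcf7 and Lef1. Memory cells that stay in a tissue express Cxcr6 and in some settings Itgae, the integrin CD103.

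All mice were 9-month-old females from crosses of hemizygous PS19 and hemizygous 5XFAD animals. Wild-type pools (WT-1 and WT-2) carried neither transgene. The pools 5XFAD-1 and 5XFAD-2 carried the amyloid transgenes, the PS19 pool carried mutant human tau under the mouse prion promoter, and the PS-5X pool carried both sets. T cells were taken from the brain parenchyma of perfused mice, and sorted CD4, CD8 and gamma-delta T cells were combined before 5′ RNA and receptor sequencing. The pools held 10, 8, 4, 3, 4 and 4 mice in the order WT-1, WT-2, 5XFAD-1, 5XFAD-2, PS19 and PS-5X. Clones of different mice in a pool cannot be told apart, and p-values measure the spread between pools, of which PS19 and PS-5X had 1 each. The sequencing run of WT-2 and 5XFAD-2 was not that of the other 4 pools.

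The deposited matrix held between 5883210 and 38616794 UMIs per pool. In the order WT-2, 5XFAD-1, 5XFAD-2, PS19 and PS-5X, the pools had 16, 7, 9, 5 and 37 large clones and 95, 76, 59, 70 and 216 small clones. Their largest clones had 50, 128, 54, 24 and 363 cells, and made up 15.3%, 41.6%, 28.1%, 25.5% and 28.5% of the cells of their large clones. WT-1 stood apart: it had 2 large clones, and 136 of its CD8 cells carried a receptor found in another pool, only 2 of them with a barcode that another pool also used. All 7 large clones of 5XFAD-1 (308 cells), 4 of 5 of PS19 and 4 of 37 of PS-5X had their receptor in another pool as well, and no large clone of WT-2 or 5XFAD-2 did. This count took whichever chains were read in a clone, and only 4 of the 5 large clones of PS19 had both. By pairs of an alpha and a beta chain, 61 cells of large clones of PS19 matched another pool, against 84 cells in its clones counted here. Between 20 and 89 barcodes of a pool also occurred in other pools, at most 23 for any pair of pools. WT-1 was therefore left out of the main comparison, which kept 74 large clones with 2195 cells and 516 small clones with 1254 cells.

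The receptors of the 6 clones below show what was counted as a clone and name the members to which the results return. They are the CDR3 coding bases, 5′ to 3′, as the authors' receptor calls list them, all in lower case where nothing is compared. PS-5X clone 1 had 363 cells, PS-5X clone 3 had 70, PS-5X clone 14 had 24, WT-2 clone 2 had 44 and 5XFAD-1 clone 1 had 128. The beta chain of PS-5X clone 3 was also the only chain read in PS-5X clone 22, with 18 cells, and whether they were 1 lineage was not tested. The receptor of 5XFAD-1 clone 1 was base for base that of WT-1 clone 1.
PS-5X clone 1 beta: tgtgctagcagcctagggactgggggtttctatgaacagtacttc
PS-5X clone 1 alpha: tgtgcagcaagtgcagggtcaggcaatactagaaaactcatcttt
PS-5X clone 3 and clone 22 beta: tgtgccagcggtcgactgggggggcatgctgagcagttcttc
PS-5X clone 3 alpha: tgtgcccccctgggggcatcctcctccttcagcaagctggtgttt
PS-5X clone 14 beta: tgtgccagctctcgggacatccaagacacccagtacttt
WT-2 clone 2 beta: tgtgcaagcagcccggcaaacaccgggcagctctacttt
WT-2 clone 2 alpha: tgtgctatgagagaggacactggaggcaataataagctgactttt
5XFAD-1 clone 1 beta: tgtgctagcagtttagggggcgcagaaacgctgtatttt
5XFAD-1 clone 1 alpha: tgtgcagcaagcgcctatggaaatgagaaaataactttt

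Cells of large clones had more RNA of inhibitory receptors, of Tox and Nr4a2 and of the chemokines Ccl3 and Ccl4 than cells of small clones, and less RNA of genes of naive and quiescent T cells. UMIs were summed per pool and clone class and compared within pools with edgeR's quasi-likelihood test, with the pool as a block. At a Benjamini-Hochberg adjusted p under 0.05, 214 genes differed, 2.55% of those tested: 116 were higher in large clones, 1.38%, and 98 lower, 1.17%. Giving each clone the same weight, whatever its number of cells, 156 genes differed, 1.86% of those tested, 93 higher (1.11%) and 63 lower (0.75%). Both comparisons shared 130 genes, all in the same direction. These were 60.7% of the first list and 83.3% of the second. Cells of large clones also held fewer UMIs, a mean of 5884 ± 571 (SD, n = 5 pools) against 6766 ± 690, lower in 5 of 5 pools (exact permutation p = 0.0625, the smallest that 5 pools allow). With every cell thinned to 3000 UMIs, 221 of 6490 genes tested differed in the pool sums, where the main fit tested 8398. Within the common run of 5XFAD-1, PS19 and PS-5X 388 genes differed, and within the separate run of WT-2 and 5XFAD-2 68 did. Without the cells whose receptor another pool also held, which removes all large clones of 5XFAD-1, 60 genes passed in the sums and 1 with equal weight per clone. Receptors were matched for this by pairs of an alpha and a beta chain, which kept 2 large clones of PS19 with 33 cells. The sums gave 99 genes without 5XFAD-1, 101 without PS-5X and 343 without WT-2, and equal weight gave 64 without 5XFAD-1 and 94 without 5XFAD-2. Without the largest clone of each pool 88 genes passed in the sums and 70 with equal weight. Of the genes named here, 16 then no longer passed: Tbc1d4, Ccl3, Satb1, Ifng, Tnfrsf9, Ly6c2, Il18r1, Nkg7, Spry1, mt-Nd1, mt-Nd2, mt-Nd4l, Tap1, Ifi27l2a, S100a6 and Tnfaip3.

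**Figure D1:**
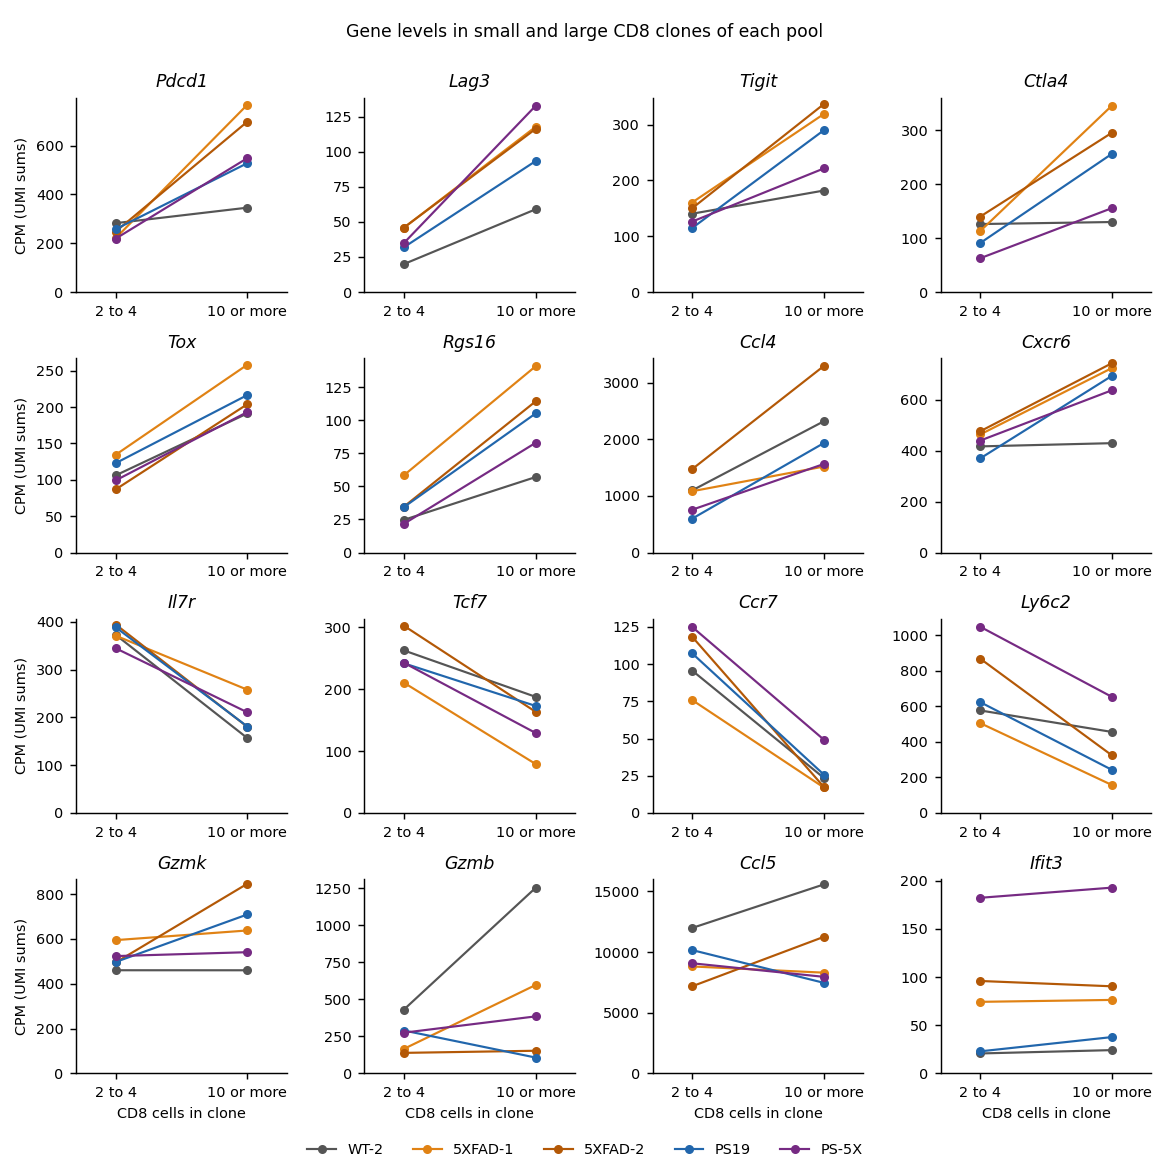
Expression of 16 genes in small clones (left) and large clones (right) of each of 5 pools, in CPM of summed UMIs; each line is 1 pool. Pdcd1, Lag3, Tigit, Ctla4, Tox, Rgs16, Ccl4 and Cxcr6 were higher in large clones in every pool, Il7r, Tcf7, Ccr7 and Ly6c2 lower in every pool, and Gzmk, Gzmb, Ccl5 and Ifit3 did not pass the test.

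Of 14 inhibitory receptor genes tested, 7 rose and none fell in large clones (median log2 difference 0.46, against 0.0037 over all genes tested). The gene lists were written with earlier results of these data known, so counts by list, here and below, are a description. Pdcd1, which encodes PD-1, was at 282, 221, 248, 258 and 219 CPM in small clones of WT-2, 5XFAD-1, 5XFAD-2, PS19 and PS-5X, and at 346, 768, 699, 528 and 549 CPM in their large clones (CPM are UMIs per 1000000 UMIs of the class and pool, scaled by TMM, edgeR's correction for composition, and later lists keep this order of pools). Every large-clone value was above every small-clone value, and WT-2 had the smallest step. The log2 difference was 1.2 ± 0.15 (SE; edgeR's quasi-likelihood test, adjusted p = 0.000493), and 0.95 with equal weight per clone. Without the cells whose receptor another pool also held, which left 4 pools, it was 1.02 (adjusted p = 0.0087).

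Lag3, an inhibitory receptor that binds MHC class II, was at 19.9, 45.9, 46.0, 31.9 and 35 CPM in small clones and at 59.0, 118, 116, 93.4 and 133 CPM in large clones. The groups did not overlap, and the log2 difference was 1.6 ± 0.11 (adjusted p = 4.56e-06). Tigit, a receptor that competes with an activating receptor for the same ligands, stood at 140, 161, 150, 115 and 126 CPM in small and 182, 319, 337, 290 and 222 CPM in large clones, a log2 difference of 0.92 ± 0.11 (adjusted p = 0.000278). Ctla4, which competes with Cd28 for its ligands, stood at 126, 113, 140, 90.9 and 62.7 CPM in small and 130, 346, 295, 256 and 156 CPM in large clones. Its step in WT-2 was small, and the log2 difference of 1.12 ± 0.16 (adjusted p = 0.00114) was 0.58 within the separate run, with an adjusted p of 0.17. Havcr2, which encodes TIM-3, was low everywhere, at 10.4, 3.16, 9.19, 2.46 and 4.09 CPM in small and 13, 33.2, 44.3, 41.7 and 18.4 CPM in large clones. It rose by 2.25 ± 0.33 on the log2 scale (adjusted p = 0.00138).

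Of 20 genes of transcription factors tied to effector function and exhaustion, 9 rose and none fell (median log2 difference 0.42). Tox was at 106, 134, 86.8, 123 and 99.2 CPM in small and at 191, 258, 204, 217 and 193 CPM in large clones, with no overlap and a log2 difference of 0.96 ± 0.08 (adjusted p = 1.07e-05). With equal weight per clone the difference in Tox was 0.55 (adjusted p = 0.0112). Nr4a2, an early gene of receptor signalling, was at 491, 380, 552, 370 and 274 CPM in small and 623, 664, 903, 920 and 505 CPM in large clones. The groups overlapped across pools, but each pool rose, by 0.80 ± 0.10 on average on the log2 scale (adjusted p = 0.00056). Bhlhe40, a regulator of cytokine production and mitochondrial metabolism, rose by 0.61 ± 0.08 (adjusted p = 0.000653), from a range of 554 to 711 CPM to one of 854 to 1156. Nfatc1, which carries the calcium signal of the receptor to the nucleus, rose by 0.60 ± 0.08 (adjusted p = 0.000721).

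Genes of the response to receptor signalling showed 5 of 20 tested higher and none lower (median log2 difference 0.28). One was Dusp2, a phosphatase chosen for naming after its value was seen, with a log2 difference of 0.45. Tnfrsf9, the costimulatory receptor 4-1BB, was at 5.58, 20.6, 14.3, 12.3 and 30.9 CPM in small and 31.7, 37.1, 37.8, 15.9 and 47.9 CPM in large clones, a log2 difference of 0.97 ± 0.20 (adjusted p = 0.0151). Spry1, an inhibitor of growth factor and receptor signalling, was higher in 4 of 5 pools, by 1.33 ± 0.17 (adjusted p = 0.000526). Its values were 38.3, 53.0, 26.6, 47.5 and 31.8 CPM in small and 75.8, 154, 22.2, 167 and 88.6 CPM in large clones. With equal weight per clone the Spry1 difference was 0.46 (adjusted p = 0.289), and without the largest clone of each pool 0.43 (adjusted p = 0.73). Tnfaip3, a brake on NF-kappa-B signalling, rose by 0.36 ± 0.08 in the sums (adjusted p = 0.0304), and its adjusted p was 0.0665 with equal weight per clone.

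Rgs16, which shortens signalling from G protein-coupled receptors, had one of the largest rises. It was at 24.7, 58.5, 34.7, 34.4 and 21.7 CPM in small and 57.1, 141, 114, 105 and 83 CPM in large clones, a log2 difference of 1.57 ± 0.12 (adjusted p = 6.18e-06). Another 4 genes with large rises in every pool were Actn2 (1.24 ± 0.18), Chn2 (1.19 ± 0.14), the membrane protease gene Adam8 (1.18 ± 0.22) and Tbc1d4 (1.15 ± 0.21), a regulator of glucose transporter traffic. Their adjusted p-values were 0.00137, 0.000278, 0.00823 and 0.00602. With equal weight per clone Tbc1d4 was not past the threshold (adjusted p = 0.0795). Litaf rose by 0.56 ± 0.07 (adjusted p = 0.000653) and Fgl2, whose secreted product dampens immune responses, by 0.76 ± 0.12 (adjusted p = 0.00186).

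The transcription factors of quiescence and stemness moved the other way: of 14 tested, 9 fell and none rose (median log2 difference -0.88). Tcf7, which encodes TCF-1, was at 262, 210, 302, 242 and 243 CPM in small and 188, 79.1, 163, 173 and 129 CPM in large clones. Each large-clone value lay below each small-clone value, and the log2 difference was -0.84 ± 0.11 (adjusted p = 0.000653). Lef1, its close relative, went from 89.3, 72.0, 97, 89.3 and 101 CPM to 57.7, 23.8, 48.0, 39.7 and 49.9 CPM, a log2 difference of -1.04 ± 0.12 (adjusted p = 0.000242). Satb1, a chromatin organiser of early T cells, fell by 1.2 ± 0.21 on the log2 scale (adjusted p = 0.00502).

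The receptors that go with that state fell as well. Il7r was at 373, 371, 394, 388 and 345 CPM in small and 157, 258, 180, 181 and 210 CPM in large clones, with no overlap and a log2 difference of -0.92 ± 0.10 (adjusted p = 0.000161). Ccr7 was at 95.7, 75.9, 118, 107 and 125 CPM in small and 23.6, 17.1, 17.5, 25.8 and 49.3 CPM in large clones, a log2 difference of -1.84 ± 0.15 (adjusted p = 1.07e-05). S1pr1, the receptor by which T cells leave tissue, was at 99.7, 56.9, 66.4, 103 and 93.2 CPM in small and 78.2, 9.40, 52.6, 21.9 and 22.2 CPM in large clones, a log2 difference of -1.37 ± 0.25 (adjusted p = 0.00755). The fall of S1pr1 was shallow in WT-2 and 5XFAD-2, both of the separate run.

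The list of naive T cell genes was read beside these. Sums over a list, here and below, were CPM of single cells, averaged within each clone and then over clones. Of the 7 genes of the naive list that were tested, 2 fell and none rose (median log2 difference -0.71), and the summed level of the list was 588 ± 58.5 CPM in small and 455 ± 47.7 CPM in large clones (n = 5 pools; lower in 5 of 5; exact permutation p = 0.0625, adjusted 0.2375). With every cell that had a UMI of Ccr7, Dapl1 or Igfbp4 left out, the log2 difference was -0.81 for Lef1, -0.93 for Tcf7 and -0.81 for Il7r. Cmah (-2.10 ± 0.28), Plaur (-2.11 ± 0.29), Pde2a (-1.45 ± 0.24), Sh3bp5 (-1.41 ± 0.24) and Nsg2 (-1.21 ± 0.18) also fell in all 5 pools, with adjusted p-values from 0.000653 to 0.00379. Cmah makes a sialic acid of the cell surface, Plaur is the urokinase receptor and Pde2a breaks down cyclic nucleotides.

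Among 12 chemokine and cytokine genes tested, 4 rose and none fell, while the median log2 difference was 0.08. Ccl4, which attracts other immune cells, was at 1097, 1083, 1473, 598 and 756 CPM in small and 2320, 1520, 3298, 1935 and 1565 CPM in large clones, a log2 difference of 1.09 ± 0.12 (adjusted p = 0.000158). Ccl3, a related chemokine, was at 120, 115, 169, 93.4 and 79.0 CPM in small and 201, 161, 426, 185 and 201 CPM in large clones, a log2 difference of 1.01 ± 0.11 (adjusted p = 0.000242). In 5XFAD-1 the step was the smallest for both chemokines. Csf1, a growth factor for macrophages and microglia, was at 5.58, 5.53, 10.2, 1.64 and 3.78 CPM in small and 10.6, 40.9, 42.5, 31.8 and 29.9 CPM in large clones, a log2 difference of 2.60 ± 0.27 (adjusted p = 0.000154). Ifng, which encodes interferon gamma, was at 508, 177, 280, 146 and 176 CPM in small and 435, 442, 517, 286 and 329 CPM in large clones. It was higher in 4 of 5 pools, with WT-2 the exception (adjusted p = 0.0164).

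Few cytotoxic genes passed: 3 of 20 tested rose and 1 fell (median log2 difference 0.11). Gzmm, a granzyme of low expression, was at 44.7, 33.2, 25.5, 35.2 and 26.5 CPM in small and 17.4, 1.66, 5.54, 1.99 and 7.55 CPM in large clones, a log2 difference of -2.09 ± 0.27 (adjusted p = 0.000653). Nkg7, which is needed for granule release, rose from a range of 1852 to 2123 CPM to one of 2261 to 2698 CPM, by 0.32 ± 0.07 on the log2 scale (adjusted p = 0.0199). Ctsd, a lysosomal protease, rose by 0.41 ± 0.07 (adjusted p = 0.00504). Gzmk, the granzyme typical of CD8 cells in aged and inflamed tissue, was at 460, 595, 495, 497 and 523 CPM in small and 460, 638, 846, 709 and 541 CPM in large clones, and its difference of 0.28 ± 0.10 did not pass (adjusted p = 0.218).

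The granzymes of circulating killer cells moved in opposite directions in different pools. Gzma was at 877, 162, 184, 281 and 138 CPM in small and 3237, 1266, 62.8, 5.96 and 128 CPM in large clones, higher in WT-2 and 5XFAD-1 and lower in the other 3 (log2 difference 0.51 ± 0.58; adjusted p = 0.818). Gzmb was at 432, 166, 139, 290 and 275 CPM in small and 1254, 597, 153, 107 and 385 CPM in large clones (0.70 ± 0.29; adjusted p = 0.30). Ccl5, the most abundant chemokine of these cells, had a log2 difference of 0.06 ± 0.12 (adjusted p = 0.936). For Prf1, which encodes perforin, it was 0.05 (adjusted p = 0.954). Cx3cr1, a receptor of circulating effector cells, had a log2 difference of -2.18 (adjusted p = 0.0081) in the common run. In the separate run it was 1.02 (adjusted p = 0.033), but there WT-2 rose and 5XFAD-2 did not. Before TMM scaling WT-2 had 65.8 CPM in small clones, 211 in clones of 10 to 29 cells and 128 in clones of 30 or more. In 5XFAD-2 these values were 19.6, 9.96 and 19.1 CPM. The run cannot be told apart from the pools in it. Over all 5 pools the log2 difference of Cx3cr1 was -0.17 ± 0.51.

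Of 19 tissue residency genes tested, 7 rose and none fell in the sums (median log2 difference 0.42). Cxcr6, which holds CD8 cells in tissue, was at 416, 463, 476, 369 and 439 CPM in small and 429, 724, 743, 693 and 637 CPM in large clones, a log2 difference of 0.55 ± 0.10 (adjusted p = 0.00504). Rgs1 rose by 0.48 ± 0.08 (adjusted p = 0.00254). Itgae was at 15.2, 38.0, 89.9, 22.1 and 36.8 CPM in small and 49.1, 142, 104, 3.97 and 124 CPM in large clones, higher in 4 of 5 pools. Its log2 difference of 1.25 ± 0.26 (adjusted p = 0.0151) became 1.04 with equal weight per clone (adjusted p = 0.376). Ccr8, a chemokine receptor of some resident cells, was below 12 CPM in small clones of every pool and at 4.97, 11.1, 27.7, 7.95 and 39.5 CPM in large clones (adjusted p = 0.00784), and was not past the threshold without PS-5X. Cd69, an activation and residency marker, had a log2 difference of 0.16 (adjusted p = 0.533).

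Chemokine receptors and integrins split, with 3 of 19 tested higher and 4 lower. Among those that fell were Cxcr4, by 0.47, and Ccr2, by 1.18 on the log2 scale, both chosen for naming after their values were seen. Ly6c2, a surface protein of memory and circulating CD8 cells, was at 577, 505, 868, 623 and 1047 CPM in small and 456, 157, 324, 242 and 653 CPM in large clones, a log2 difference of -1.06 ± 0.15 (adjusted p = 0.00102). Il18r1, a receptor chain for interleukin-18, was lower in 4 of 5 pools (-1.10 ± 0.22; adjusted p = 0.0134), with 5XFAD-1 the exception. Memory genes had 1 of 19 higher and 2 lower, and genes of circulating effector cells 1 of 9 higher and 1 lower.

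The remaining lists had few genes past the threshold. Type I interferon response genes had 1 of 24 tested higher and none lower (median 0.08), and Ifit3 was at 20.7, 74.3, 96.0, 22.9 and 182 CPM in small and 24.2, 76.3, 90.4, 37.7 and 193 CPM in large clones (adjusted p = 0.806). The gene that rose was Ifi27l2a, by 0.32 ± 0.08 (adjusted p = 0.0373). Of 27 genes of antigen presentation and the interferon gamma response 1 rose, Tap1, the peptide transporter (0.28 ± 0.07; adjusted p = 0.0375), whose adjusted p was 0.107 with equal weight per clone. In edgeR's test 0 of 24 cell cycle, 0 of 13 glycolysis and 0 of 23 heat shock genes passed, with 2, 2 and 9 at an unadjusted p under 0.05. Mki67, a marker of dividing cells, was at 104, 94.9, 59.2, 152 and 56.1 CPM in small and 189, 53.6, 11.1, 19.9 and 51.9 CPM in large clones (adjusted p = 0.613). Of 13 mitochondrially encoded genes 3 fell, mt-Nd1, mt-Nd2 (-0.33) and mt-Nd4l (-0.33), and the mitochondrial share of UMIs was 1.09% ± 0.06 in large and 1.19% ± 0.0909 in small clones, lower in 5 of 5 pools (exact permutation p = 0.0625).

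Markers of other cells were read in both classes. The 10 genes of B and plasma cells summed to between 81.7 and 459 CPM in small and between 41.3 and 72.6 CPM in large clones, and 5XFAD-2 alone gave the 459. These sums weigh each clone alike. In the UMIs summed over all small clones of a pool, a different measure that can exceed them, the highest single levels were 850 CPM of Igkc and 471 CPM of Jchain, both products of plasma cells. Of these genes, Pax5, which defines the B cell lineage, was at 0 in the small clones of all 5 pools. Ighm fell with them (-1.38 ± 0.34; adjusted p = 0.0447), from 279 to 20.3 CPM in 5XFAD-2. The part of such cells in the result was not tested. The NK cell list summed to 308 CPM in small and 324 CPM in large clones and the microglia list to 292 and 289 CPM. Tmem119, a defining gene of microglia, was at 0 in both classes of all 5 pools, as were Gfap, Aqp4, Mog, Mobp, Snap25, Cldn5 and Flt1 of the brain parenchyma list.

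Along the whole range of clone sizes most of these genes moved step by step, in values given here as a description because the size classes are those of the rule. Pdcd1 averaged 103, 239, 375, 477 and 704 CPM over the pools in clones of 1, 2 to 4, 5 to 9, 10 to 29 and 30 or more cells. Lag3 went from 17.8 through 34.7, 60.5 and 69.0 to 135 CPM, and Tox from 62.0 through 107, 122 and 156 to 292 CPM. Ccr7 ran the other way, at 656, 101, 58.0, 37.1 and 13.6 CPM, and Il7r likewise at 627, 364, 288, 235 and 143 CPM. Gzmk made most of its rise between single cells and small clones, at 217, 500, 622, 637 and 694 CPM. Ly6c2 was highest in small clones, at 589, 701, 650, 468 and 226 CPM. PS19 had no clone of 30 or more cells, so the last value of each series rests on 4 pools.

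At the edges of the rule the order was not smooth. Pdcd1 was at 302 CPM in clones of 3 or 4 cells and at 359 CPM in clones of 5 or 6. In clones of 8 or 9 cells (133 cells of 4 pools) it was at 430 CPM, and in clones of 10 or 11 cells (105 cells of 5 pools) at 109 CPM. Lag3 was at 55.7 and 13.3 CPM in those last classes, while Tox was at 95.5 and 103 and Il7r at 320 and 300 CPM. In the clones of 10 or 11 cells Pdcd1 was at 245, 167, 0, 50.6 and 82.4 CPM in WT-2, 5XFAD-1, 5XFAD-2, PS19 and PS-5X. Lag3 was at 66.4 CPM in those of WT-2 and at 0 in the other 4 pools. In 5XFAD-1, 5XFAD-2 and PS19 this class was a single clone (5XFAD-1 clone 7, 5XFAD-2 clone 9 and PS19 clone 5). Each had the lowest Pdcd1 of its pool's large clones, so these values do not describe a size class of several clones.

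**Figure D2:**
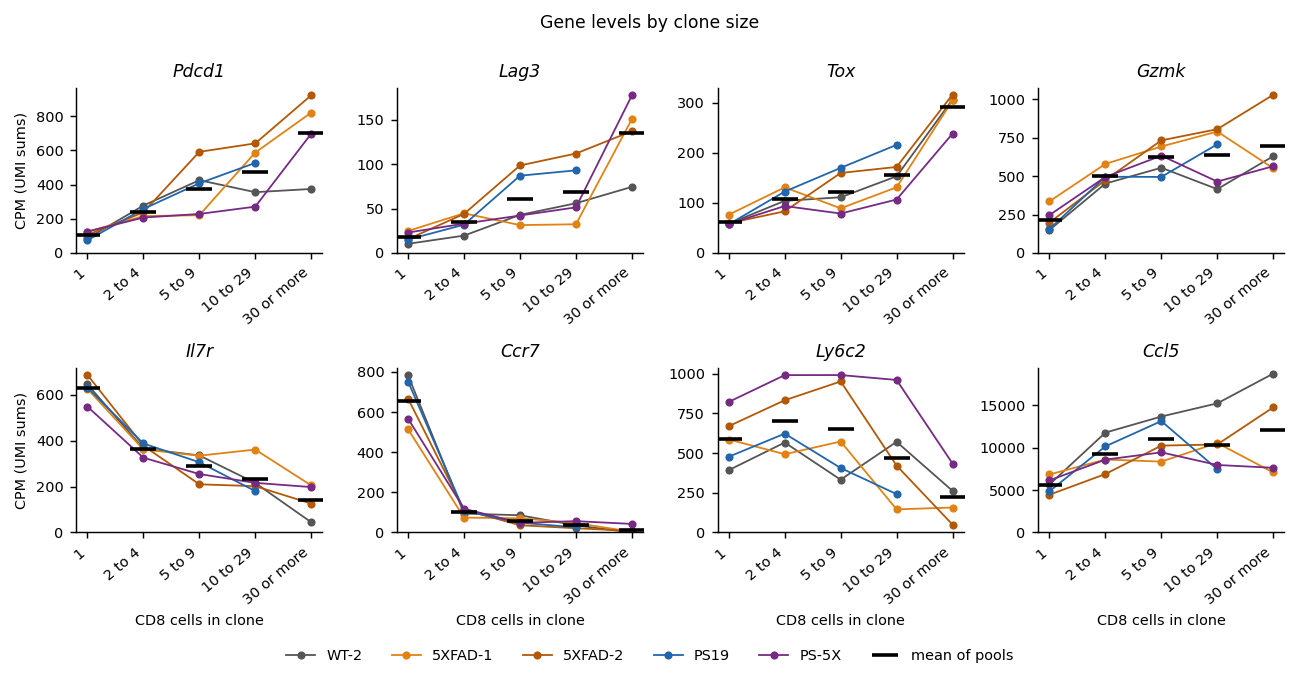
Mean CPM of 8 genes by clone size in CD8 cells; each line is 1 pool and the black bar is the mean of the pools with such clones. Pdcd1 averaged 103 CPM in single-cell clones and 704 CPM in clones of 30 or more cells, and Ccr7 656 and 13.6 CPM.

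The difference between large and small clones was also compared between the 3 pools with amyloid transgenes and the 2 pools without. No gene passed at an adjusted p under 0.05 (0% of those tested; edgeR's quasi-likelihood test, with 351 genes at an unadjusted p under 0.05; DESeq2 called 0 as well, with 36 at an unadjusted p under 0.05). The fit had 3 residual degrees of freedom. For Pdcd1 the difference was larger by 0.88 on the log2 scale in the amyloid pools, which did not pass.

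Large clones were not alike. Of the 74 large clones, 46 had more Pdcd1 than the mean of the small clones of their pool, 43 more Lag3, 38 more Tox and 58 more Cxcr6. A mean over clones with many zeros lies above most of them, so the same count was made over the 516 small clones. For Pdcd1 62.2% of large and 33.3% of small clones were above that mean, for Lag3 58.1% and 24.6%, for Tox 51.4% and 29.7%, and for Cxcr6 78.4% and 42.1%. For Ccr7 the shares were 12.2% and 24.8%, for Lef1 13.5% and 35.1%, for Tcf7 16.2% and 40.9%, and for Il7r 21.6% and 38.2%. These shares are a description, since clones of few cells give more zeros than clones of many. Pdcd1 ran from 0 CPM in 12 clones through a median of 415 to 1375 CPM in WT-2 clone 6. By pool, in the same order, the median large clone had 288, 787, 573, 586 and 233 CPM of Pdcd1, the lowest 0, 167, 0, 50.6 and 0 CPM, and the highest 1375, 908, 1199, 799 and 1227 CPM. The medians of WT-2 and PS-5X were the lowest, and these pools had 6 and 5 of the large clones at 0.

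Gzma was high in few clones. It was at 0 in 23 of the 74 large clones and above the mean of the small clones in 17 (23.0%, against 11.8% of small clones). Its highest values were 12873 CPM in WT-2 clone 5 and 12200 CPM in 1 clone of 5XFAD-1, where the median large clone had 43.2 CPM. The highest value was 206 CPM in 5XFAD-2, 15 CPM in PS19 and 1833 CPM in PS-5X. Itgae had the same kind of spread: it was at 0 in 24 large clones, with a median of 21.6 CPM in PS-5X and a highest value there of 712 CPM, in clone 6.

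**Figure D3:**
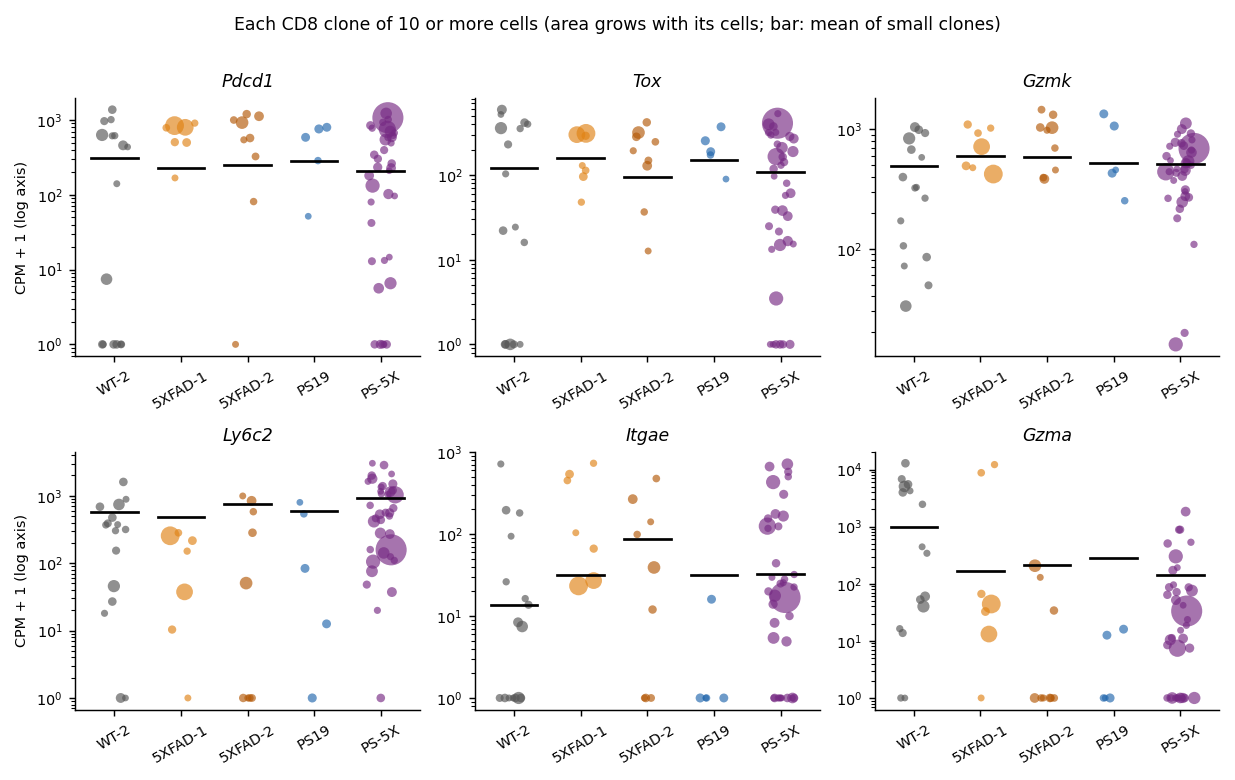
Level of 6 genes in each large clone, by pool, in CPM + 1 on a log axis; a point's area grows with the clone's number of cells and the bar is the mean of the pool's small clones. Large clones of a pool ranged from 0 to 1375 CPM of Pdcd1 in WT-2, on both sides of the small-clone mean.

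To describe how uniform single clones were, all CD8 cells were clustered by their expression and the chance that 2 cells fall in the same cluster was computed within and between clones. Cells of another clone can come from another mouse of the pool, so differences between mice enter this comparison. In the 16 clones of 30 or more cells the median chance was 37.3% for 2 cells of the clone and 16.1% for a cell of the clone and a cell of another large clone of its pool. It was the higher within the clone in 15 of 16, and the exception was 5XFAD-1 clone 1, at 30.4% against 30.7%. The clones ranged from 20.8% in PS-5X clone 2 to 86.8% in WT-2 clone 2. At a coarser clustering the medians were 43.2% and 27.3% (15 of 16), and at a finer one 26.2% and 8.72% (16 of 16). With clonotypes of identical beta chain merged, 21 of 21 clones of that size were above.

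Most large clones spanned several clusters. Of the 74, 41 had 50% or more of their cells in 1 cluster, and the share in the main cluster ran from 26.3% to 95.2% with a median of 50%. The cluster led by Pdcd1, Rgs16 and Lag3 was the main one of 26 clones with 1179 cells, of which 9 were PS-5X clones and 4 or 5 came from each of the other 4 pools. The cluster led by Egr1, Dipk2a and Xcl1 was the main one of 16 clones, 12 of them in PS-5X. The cluster led by the heat shock genes Hspa1a and Hspa1b with Ccl3 was the main one of 10 clones, 5 of them in PS-5X. Its top 50 genes held 6 of 7 markers of cells high in PD-1 (Pdcd1, Lag3, Tox, Tigit, Ccl3, Ccl4 and Rgs16). Those of the Pdcd1, Rgs16 and Lag3 cluster held all 7. A clone split between these clusters, such as WT-2 clone 1 (48% and 42%), thus spans clusters that share most of those markers. The circulating effector-like cluster, led by Gzma, S1pr5 and Cx3cr1, was that of 8 clones, 7 of them in WT-2. The resident-like cluster, led by Ccr8, Cd40lg and P2rx7, was that of 5 clones, all in PS-5X. The interferon-stimulated-like cluster, led by Cxcl10, Ifit3 and Rsad2, was that of 4 clones, also all in PS-5X. Of the 289 cells of the resident-like cluster, 249 came from PS-5X, so the state cannot be told apart from that library. PS-5X also gave 487 of the 721 cells of the interferon-stimulated-like cluster, and WT-2 gave 372 of the 701 of the circulating effector-like cluster. Whether the main clusters of large clones follow these libraries was not tested.

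**Figure D4:**
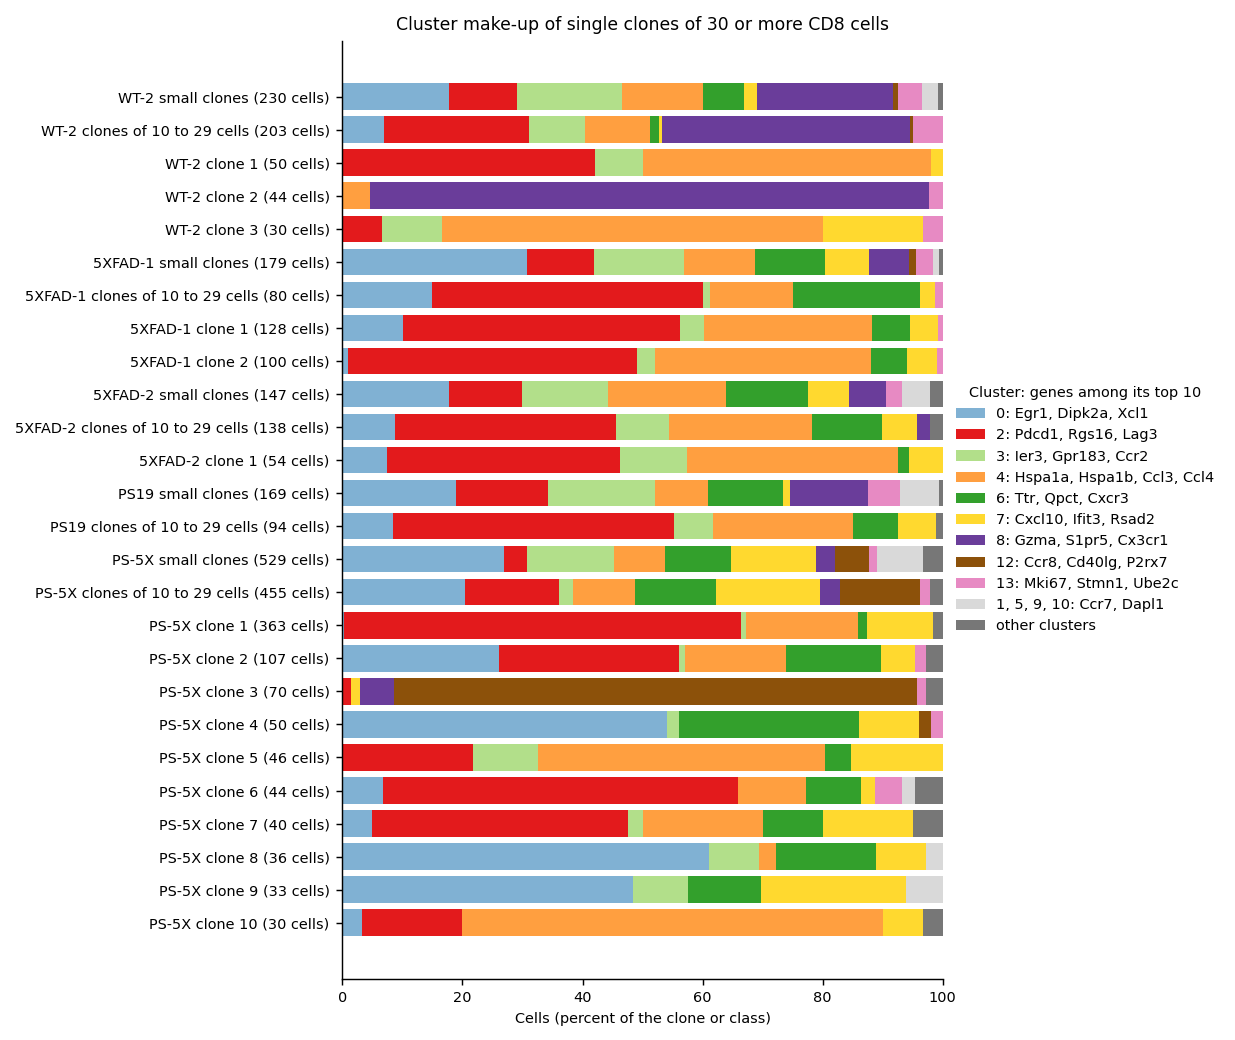
Percent of cells in each expression cluster for the 16 clones of 30 or more cells, and for small clones and clones of 10 to 29 cells of each pool. WT-2 clone 2 had 93.2% of its cells in 1 cluster and PS-5X clone 2 had 29.9% in its main one.

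The range is shown by 4 clones. PS-5X clone 1, with 66.1% of its 363 cells in the Pdcd1, Rgs16 and Lag3 cluster, had 1074 CPM of Pdcd1 (exact Poisson 95% interval 1026 to 1123, for counting error only), 316 of Lag3, 408 of Tox and 690 of Gzmk, with 15.8 of Itgae and 32.2 of Gzma. WT-2 clone 2, with 93.2% of its 44 cells in the circulating effector-like cluster, had 5062 CPM of Gzma (4714 to 5428), 3804 of Klf2, 780 of Klrg1, 387 of Cx3cr1 and 374 of S1pr5, but 6.45 of Pdcd1, 32.2 of Gzmk and 0 of Tox. PS-5X clone 3, with 87.1% of its 70 cells in the resident-like cluster, had 430 CPM of Itgae, 519 of Cd40lg, 345 of Ccr8, 152 of Il4, 1123 of Gzmb and 407 of Il7r, with 132 of Pdcd1, 14.9 of Gzmk and 2.48 of Tox. PS-5X clone 4, with 54% of its 50 cells in the Egr1, Dipk2a and Xcl1 cluster, had 538 CPM of Gzmk, 415 of Ly6c2 and 142 of Ccr7, with 5.57 of Pdcd1 and 13.9 of Tox.

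The levels of clones with a related receptor call could be set beside these. PS-5X clone 22, which had the beta chain of clone 3 printed above, had 574 CPM of Itgae, 471 of Cd40lg, 395 of Ccr8 and 188 of Il4 with 18.8 of Gzmk and 0 of Tox. It had 395 CPM of Pdcd1 against 132 in clone 3, 885 against 301 of Gzma and 18.8 against 119 of Klf2. PS-5X clone 14, with another beta chain, had 66.7% of its cells in the same resident-like cluster. It had 305 CPM of Itgae and 165 of P2rx7, but 0 of Cd40lg and Il4, 1895 of Gzmb, 1499 of Ly6c2 and 311 of Gzmk. 5XFAD-1 clone 1 and WT-1 clone 1, whose receptor was the same, had 841 and 725 CPM of Pdcd1, and whether these are cells of the same mice cannot be told apart from a receptor shared by different mice.

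The share of cells with a UMI gave the same picture within 1 library. After thinning to 3000 UMIs per cell, 84.4% of cells of PS-5X clone 1 had a UMI of Pdcd1 (89.0% before thinning; median 4743 UMIs). In PS-5X clone 8 the share was 0% (2.78% before; median 6137.5 UMIs) and in PS-5X clone 4 it was 2% (4% before; median 7273 UMIs), in the same library. Over small and large clones the thinned share of Pdcd1 was 34.8% and 41.2% in WT-2 (37.8% and 41.6% before), 30.5% and 72.1% in 5XFAD-1 (45.8% and 82.8% before), and 36.2% and 64.1% in 5XFAD-2 (50.3% and 71.9% before). In PS19 it was 30.9% and 59.1% (40.2% and 69.1% before), and in PS-5X 31.9% and 52.9% (40.3% and 61.9% before). Cells of under 3000 UMIs were left out. In the order of pools used above these were 23, 2, 6, 4 and 46 cells of small clones and 55, 11, 8, 6 and 96 cells of large clones.

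A gene's variation between cells was described by the between-clone share, the part of the variance of log-scaled counts among cells of large clones of a pool that lay between clones. Clones of a pool can come from different mice, so this share also holds any difference between mice. Over 3046 genes its median was 0.90%, and 130 genes were above 10%. It was highest for Gzma (58.7%), Itgae (54.9%), Klrg1 (53.5%) and Cd6 (50.5%), followed by Ly6c2 (45.6%), Klrc1 (45.3%) and Pdcd1 (44.2%). Klrg1, Klrc1 and Klrk1 (41.9%) are receptors shared with NK cells, and Cd5 (44.0%) and Cd6 tune the signal of the T cell receptor. Gzmk stood at 39.1%, Gzmb at 38.6%, Tox at 35.2%, Lag3 at 24.2% and Tigit at 21.7%. Gzma, the gene with the highest share here, did not pass the test by clone size.

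**Figure D5:**
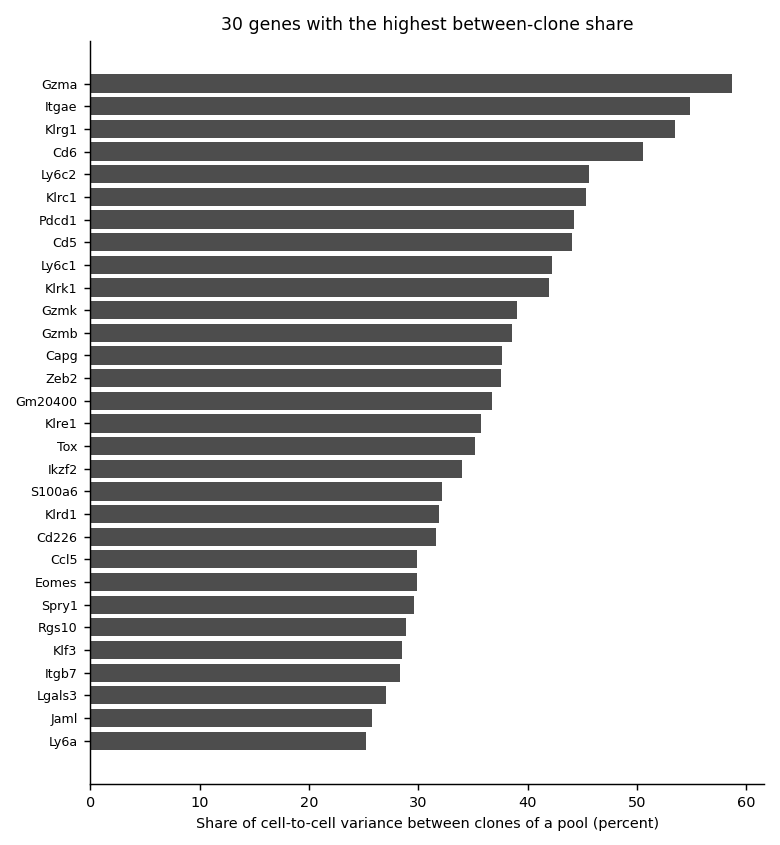
The 30 genes with the highest between-clone share of variance among cells of the 74 large clones, in percent; each bar is 1 gene. Gzma (58.7%) and Itgae (54.9%) were highest, and Pdcd1 stood at 44.2%.

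Some clones had nearly matching receptors, and their levels are set side by side here as a description, chosen for their receptors. Whether clonotypes of the same pool are separate rearrangements was not tested. The pairs PS-5X clones 4 and 85, and PS-5X clones 7 and 56, share an alpha chain. Several other pairs of a pool were called apart with no mismatch in the CDR3 of either chain. Among them were 5XFAD-2 clones 6 and 12 (15 and 8 cells) and 5XFAD-2 clones 2 and 25 (29 and 5 cells). WT-2 clones 12 and 34 (13 and 5 cells) and PS19 clones 40 and 87 (3 and 2 cells) were others. The first set used TRBV19 with TRBJ2-7 and TRAJ21 and held WT-2 clone 1 (50 cells), WT-2 clone 3 (30 cells) and PS-5X clone 10 (30 cells). Capitals mark the bases that differ within the set, and positions are counted from 1 at the 5′ end of the CDR3.
WT-2 clone 1 beta: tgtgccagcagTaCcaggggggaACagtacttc
WT-2 clone 3 beta: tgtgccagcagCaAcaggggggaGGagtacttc
PS-5X clone 10 beta: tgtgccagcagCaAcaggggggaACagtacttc
WT-2 clone 1 and PS-5X clone 10 alpha: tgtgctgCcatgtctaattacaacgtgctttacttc
WT-2 clone 3 alpha: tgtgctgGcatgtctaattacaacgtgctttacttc
From WT-2 clone 1, the beta chain of PS-5X clone 10 differed by T12C and C14A, which changed 1 residue, and that of WT-2 clone 3 by T12C, C14A, A24G and C25G, which changed 2. The alpha chain of WT-2 clone 3 differed by C8G. The main cluster of all 3 clones was the one led by the heat shock genes Hspa1a and Hspa1b with Ccl3, Dnajb1 and Ccl4, with 48% of the cells of WT-2 clone 1, 63.3% of WT-2 clone 3 and 70% of PS-5X clone 10. Pdcd1 was at 631, 458 and 588 CPM in them, Tox at 357, 591 and 269 CPM and Ccl4 at 6742, 3057 and 3774 CPM. Lag3 was at 128, 44.3 and 72.6 CPM and Cxcr6 at 820, 251 and 639 CPM. TRBV19 was used by 13 of 74 large clones (17.6%) and 39 of 516 small clones (7.56%), and TRAJ21 by 7 of 72 (9.72%) and 10 of 516 (1.94%), given as counts with no test.

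The second set used TRBJ2-3 with TRAV7D-5 and TRAJ48, and its beta chains coded for the same residues through different bases. It held PS-5X clone 4 (50 cells), PS-5X clone 85 (4 cells), 5XFAD-1 clone 9 (9 cells) and 5XFAD-1 clone 34 (4 cells).
PS-5X clone 4 beta: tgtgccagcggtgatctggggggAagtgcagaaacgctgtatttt
PS-5X clone 85 beta: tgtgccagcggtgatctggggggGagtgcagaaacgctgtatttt
5XFAD-1 clone 9 beta: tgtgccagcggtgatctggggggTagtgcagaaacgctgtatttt
5XFAD-1 clone 34 beta: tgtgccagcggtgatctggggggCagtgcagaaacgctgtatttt
PS-5X clone 4 and clone 85 alpha: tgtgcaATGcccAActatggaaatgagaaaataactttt
5XFAD-1 clone 9 alpha: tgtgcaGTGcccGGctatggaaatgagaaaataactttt
5XFAD-1 clone 34 alpha: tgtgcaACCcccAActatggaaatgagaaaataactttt
From PS-5X clone 4 the beta chains differed by A24G, A24T and A24C, and none of these changed a residue. The alpha chains differed in up to 5 bases. All were low in Pdcd1: PS-5X clone 4 had 5.57 CPM and the other 3 had 0. These 3 held 4 to 9 cells each. Other genes differed among the 4 clones, with Il7r at 111, 0, 399 and 934 CPM and Gzmb at 75.2, 237, 207 and 453 CPM.

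The third set used TRBV29 with TRBJ2-7 and TRAV4-4-DV10 with TRAJ49, again with the same beta residues, in PS-5X clone 7 (40 cells), PS-5X clone 56 (5 cells) and WT-2 clone 19 (8 cells).
PS-5X clone 7 beta: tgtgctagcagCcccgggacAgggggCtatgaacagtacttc
PS-5X clone 56 beta: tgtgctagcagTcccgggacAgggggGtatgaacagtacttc
WT-2 clone 19 beta: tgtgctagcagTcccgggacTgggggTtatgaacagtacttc
PS-5X clone 7 and clone 56 alpha: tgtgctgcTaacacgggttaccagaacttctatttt
WT-2 clone 19 alpha: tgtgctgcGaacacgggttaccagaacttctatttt
From PS-5X clone 7 the beta chain of PS-5X clone 56 differed by C12T and C27G and that of WT-2 clone 19 by C12T, A21T and C27T, and the alpha chain of WT-2 clone 19 by T9G. Pdcd1 was at 707, 277 and 996 CPM in these 3 clones. In the same order Ccl4 was at 2464, 85.3 and 116 CPM, Gzmb at 287, 384 and 0 CPM, and Itgae at 165, 192 and 0 CPM. The main cluster of PS-5X clone 7, led by Pdcd1, Rgs16 and Lag3, held 42.5% of its cells. That cluster held 3 of the 8 cells of WT-2 clone 19, with 5 in another. PS-5X clone 56 had no single main cluster, with 2 of its 5 cells in 1 cluster and 2 in another.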

How the data were processed

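Single-cell 5′ RNA and T cell receptor libraries of 6 pools were used. The authors deposited 1 matrix of UMI counts for all pools and receptor contigs with clonotypes, made with Cell Ranger 6.0.1 on GRCm38/mm10, per the submitters' processing notes; whether depth was equalised when pools were joined is not given in the sources used here. All deposited columns of per-sample values were mapped to a pool.

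Cell filters and clone sizes are given with the results. UMI counts were summed per pool and clone class and tested with edgeR 4.0.16 (R 4.3.3; TMM, filterByExpr, quasi-likelihood, pool as block). Equal weight per clone used limma 3.58.1 on log2(mean CPM + 5). DESeq2 1.42.0 was an alternative. Cell measures were tested by exact two-sided sign permutation over pools. On simulated data with 8299 genes, edgeR recovered 100% of genes changed by 1 log2 unit, with 5.660% false calls. Every simulated gene had the same dispersion (biological coefficient of variation 9.12%), and only genes of 20 or more CPM were changed. Measured genes vary more or less than that, so the 100% does not give the power for them. Cells were clustered with scanpy 1.11.5 and leidenalg 0.10.2 (2000 variable genes, 30 components, 15 neighbours, resolution 1). Scrublet's automatic threshold marked 0 to 12 barcodes per pool and was not relied on; doublets were kept, and removal of the highest scores was an alternative. Named genes were the 10 largest changes each way at 20 or more CPM, up to 4 per list, and a fixed set of 35. The members and lists were chosen with earlier results of these data known. The numbers of the pools do not pair them, and the comparison is within pools. A few measured genes are not reported here.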

Additional observations from a re-analysis of the deposited data

Results flagged for a closer look

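Of 73 quantities tested for a pool far from the other 4, 5 had one, and chance marks about 1 in 20 groups. The log2 difference of Ifng, large minus small clones, was -0.225 in WT-2 and 0.884 to 1.32 in the others. That of Igkc, an immunoglobulin light chain gene, was -4.41 in 5XFAD-2 and -0.756 to 0.182 in the others, and the summed level of B and plasma cell genes differed by -387 CPM there and by -60.2 to -36.1 CPM elsewhere. For mt-Nd4l WT-2 stood apart at -0.524 (others -0.31 to -0.255), and for Tnfaip3 PS19 did at 0.776 (others 0.171 to 0.322). In WT-1, which the comparison did not use, 136 CD8 cells carried a receptor of another pool.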

How the results depend on the processing

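Of 62 named genes 51 passed the test, and 0 of these changed direction in the alternatives that tested them, up to 23 each. Chn2, Gzmm, Il7r, Lag3, Lef1, Pdcd1, Rgs16, Tigit and Tox passed in all 23, and Ccr7 in the 22 that could test it, since 1 removes the cells with its UMIs. Of the fits with equal weight per clone, these 23 held only the main one. A gene that passed in all 23 can therefore fail in the equal-weight alternatives below, where as few as 1 or 0 genes passed. The pools set how many genes pass: with pools left out in turn, the pool sums gave 99 to 343 genes, equal weight per clone 64 to 178 and the amyloid contrast 0 to 28 (3 without WT-2, 28 without PS19). The number of genes in the pool sums was 333 of 8673 tested with clones merged by identical beta chain. It was 88 of 8308 without the largest clone of each pool and 121 of 7828 without cells with a UMI of Ccr7, Dapl1 or Igfbp4. It was 60 of 8203 without cells whose receptor another pool held. It was 388 of 8831 in the common and 68 of 8321 in the separate run, and 120 of 8398 with DESeq2. With all genes of at least 1 UMI it was 495 of 16398, against 214 of 8398 in the main fit. With equal weight it was 46 of 8309 with WT-1, 252 of 8673 with merged clones and 70 of 8308 without the largest clones. It was 62 of 7828 without those naive-gene cells and 1 of 8203 without receptors of other pools. It was 99 of 6490 with thinned cells and 77 of 8321 in the separate run. With all genes it was 0 of 16398 (limma, 1352 at an unadjusted p under 0.05), against 156 of 8398 in the main fit. The amyloid contrast gave 31 of 16398 with all genes. Without the pool as a replicate block, 37 genes passed in the sums and 27 with equal weight, since the comparison is within pools; the numbers of the pools do not pair them. The fit without receptors of other pools had 4 pools, and the cause of these changes was otherwise not tested.

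Reversals of log2 differences were among genes that did not pass. Gzma was -0.26 with equal weight, -0.025 with WT-1, -0.23 without 5XFAD-1 (-0.23 to 1.06 with pools left out), -0.52 with large clones of 20 or more cells, -0.0078 without receptors of other pools and -0.12 with DESeq2. Prf1 was -0.089 without 5XFAD-2 (-0.089 to 0.16), -0.095 without the largest clones and -0.19 in the common run. Ccl5 was -0.074 with WT-1, -0.017 without WT-2, -0.084 without 5XFAD-2 (-0.084 to 0.19), -0.0033 without naive-gene cells, -0.045 thinned and -0.24 in the common run (adjusted p = 0.00488). Cx3cr1 was 0.25 without 5XFAD-1, 0.11 without PS19 (-1.82 to 0.25), 0.091 without the largest clones, 0.12 with large clones of 5 or more cells, 0.44 without receptors of other pools, 1.02 in the separate run and 0.49 without the block. Ifit3 was -0.055 with WT-1 and -0.066 without the largest clones, Mki67 0.042 without naive-gene cells and 0.071 in the separate run, and Cd69 -0.087 there. With WT-1 the differences were -832 UMIs, -142 genes and -0.135% mitochondrial UMIs per cell and -143 CPM of naive genes, each with an exact permutation p of 0.03125. With pools left out, the list sums ran from -3.67 to 35.6 CPM for NK cells, from -14.9 to 12.2 for microglia (3.21 without PS19) and from -8.45 to 4.31 for brain parenchyma (0.83 without PS19).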
